A study of Mus musculus with 12 samples.

Results

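Translation factors and aminoacyl-tRNA synthetases are the soluble proteins that bring an mRNA, a ribosome and charged tRNAs together. They were taken here from a count table of 24391 genes by symbol: every Eif gene followed by a digit, except the eIF2 kinases and pseudogenes, plus 5 named elongation factors and the 20 cytosolic synthetases. This gave 76 genes, of which 51 were initiation factors. The counts came from polyadenylated RNA of CD11b dendritic cells (DCs), antigen-presenting cells of the mononuclear phagocyte lineage, from a mouse study of established pulmonary fibrosis. All groups were wild-type C57BL/6J mice of 8 to 12 weeks that had aspirated a replication-deficient adenovirus through the trachea. The control groups received the vector with no inserted gene (AdCL), and the other groups a vector with a pig gene for biologically active TGF-β1 (AdTGFb1), so that the transgene came on top of the animals' own Tgfb1. The titles name 2 experiments, called 1 and 3, with 3 libraries per vector in each, and every library bears a DC number. In experiment 1 the controls were DC 7, 8 and 9 and the TGF-β1 libraries DC 14, 52 and 54. In experiment 3 the controls were DC 943, 944 and 949 and the TGF-β1 libraries DC 954, 955 and 956. Uninfected mice were not analysed here, so both groups carry the vector. The sources used here do not state the time after the vector, the gate of the sort or whether each library is a separate animal, and every p-value measures library-to-library spread, which may be technical.

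Protein synthesis starts when eIF2 carries the initiator tRNA to the small ribosomal subunit, helped by eIF1, eIF1A, eIF3 and eIF5, while eIF2B reloads eIF2 with GTP. The cap of the mRNA is bound by eIF4E, which joins the scaffold eIF4G and the helicase eIF4A, and the eIF4E-binding proteins compete with eIF4G for eIF4E when mTORC1 is inactive. Elongation then needs eEF1A to deliver aminoacyl-tRNA, the eEF1B subunits to recharge eEF1A, and eEF2 to move the ribosome, with each synthetase loading its amino acid onto the matching tRNA. MYC and ATF4 are known activators of many of these genes.

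As background, E-boxes of the letters CACGTG are bound by MYC and related factors, and CEBP-ATF response elements of the letters TGATGNAAT by ATF4 with a C/EBP partner. In RefSeq promoters of build GRCm38.p6, 55 of the 76 members had an entry. Over the 250 bases before the annotated start, on both strands, CACGTG was present in 13 of these 55 genes (23.6%), against 9.83% of the 9942 genes that were tested here and had an entry, and 6.86% of all 27025 genes of the promoter table. Among the members called below with AdTGFb1 that had an entry, 4 of 11 held CACGTG, 1 of them higher (Farsb) and 3 lower (Eif4e, Eif4a1 and Aars). TGATGNAAT was present in 2 of the 55, Aars and Gars (3.64%), against 0.473% of tested genes with an entry. The windows below are those of the called members with an E-box, whose RNA is described further on, and of Gars as the other gene with a response element. They are written 5′ to 3′ on the gene's strand with 20 bases on each side, and capitals mark the motif.
Eif4e, chr3:138527184-138527229, plus strand: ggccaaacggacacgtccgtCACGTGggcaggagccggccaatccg
Eif4e, chr3:138527020-138527065, plus strand: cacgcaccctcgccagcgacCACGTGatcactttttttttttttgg
Eif4a1, chr11:69672587-69672632, minus strand: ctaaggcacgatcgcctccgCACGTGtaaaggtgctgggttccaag
Farsb, chr1:78488911-78488956, minus strand: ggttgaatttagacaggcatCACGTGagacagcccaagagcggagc
Aars, chr8:111033676-111033757, plus strand: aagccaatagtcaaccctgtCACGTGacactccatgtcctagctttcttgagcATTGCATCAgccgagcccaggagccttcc
Gars, chr6:55037950-55037998, plus strand: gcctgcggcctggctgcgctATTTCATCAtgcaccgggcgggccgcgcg
The second run of capitals in Aars and the run in Gars are the response element read on the other strand. The motifs in these windows do not overlap each other. The matches are descriptions of letters, and binding was not measured.

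Libraries held 10099912 to 15594546 counts, and the members took 1.2 to 1.56% of them. A gene with 3 counts stood at 0.181 to 0.31 CPM (counts per 1000000 counts after TMM scaling, the unit of all levels below), and this floor covers counting error only. All 12 markers of conventional DCs were detected, with summed levels of 32390 to 43100 CPM under AdCL and 21710 to 35200 under AdTGFb1. Over both experiments 7 of the 12 were called lower (10.4% of all tested genes were) and 1 higher (6.78%). The summed level of 11 macrophage and monocyte markers was 3746 to 8767 CPM under AdCL and 8275 to 18630 under AdTGFb1. Of these 11, 9 were called higher and 0 lower over both experiments. Alveolar macrophage markers (8 tested) summed to 73.8 to 174 CPM under AdCL and 1083 to 2286 under AdTGFb1 in experiment 1, where 3 were called higher, and to 214 to 627.5 and 69.2 to 128 in experiment 3, where 2 were called lower. For 3 of these 8 the difference between the experiments was called. Endothelial markers summed to 192 to 648 CPM under AdCL and 65.7 to 98.0 under AdTGFb1 in experiment 1, and to 89.0 to 139.9 and 141 to 204 in experiment 3. In experiment 1, 9 of the 10 were called lower (14.1% of all genes were), and in experiment 3 none was called. The difference between the experiments was called for 8 of the 10. The ribosomal RNA precursor Rn45s took 7.44 to 8.33% of counts under AdCL and 5.6 to 7.46% under AdTGFb1 in experiment 1, and 3.92 to 4.77% and 5.91 to 7.16% in experiment 3. The part of these shares and markers in the differences between experiments given below was not tested. No list had a marker at 0 in every library. By Xist and Y-linked counts, AdCL DC 7, 8 and 9 and AdTGFb1 DC 14 were male and the other 8 libraries female, so sex moved with both vector and experiment. In bulk RNA, fewer cells of a type and less RNA per cell cannot be told apart.

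With AdTGFb1, RNA for several core initiation and elongation factors was lower, and RNA for 3 members was higher. Over both experiments 14 of the 73 members tested were called lower and 3 higher at an adjusted p under 0.05 (edgeR's quasi-likelihood test with Benjamini-Hochberg adjustment over 13221 genes), while 56 were not called. Across all tested genes 17.2% were called, 10.4% lower and 6.78% higher, and for the members these shares were 19.2% lower and 4.11% higher. The fallers were Eif1, Eif2s2, Eif3d, Eif3e, Eif4e, Eif4a1, Eif4a2, Eif5, Eif6, Eef1a1, Eef1b2, Eef1g, Aars and Cars, and the 3 that rose were Eif4e3, Farsb and Wars. The median log2 fold change of the members was -0.14, against 0.00 for all genes (-0.002). Scaling to total counts without TMM moved the median of all genes to 0.17 and that of the members to 0.03, and then 5 members were called lower and 5 higher. Relative to all genes the members' median was -0.14 under both scalings, and 51 of 73 members lay below the median of all genes in each. A change of scaling moves all genes nearly alike, so these values could hardly differ and are no check of the scaling. In 7 members (Eif1, Eif2s2, Eif4e, Eif4a1, Eif4a2, Eif5 and Eef1b2) all 6 AdTGFb1 libraries lay below all 6 AdCL libraries, as in 4.46% of all tested genes. In 1 member, Eif4e3, they all lay above, as in 1.86% of all genes. These separations are in TMM-scaled levels. In experiment 1 the TMM factors were 0.881 to 0.919 under AdCL and 1.05 to 1.08 under AdTGFb1. As shares of total counts, the groups of Eif1, Eif4a1, Eif4a2 and Eef1b2 overlapped. Within experiment 1 alone, the 3 AdTGFb1 libraries lay below the 3 AdCL libraries in 21.6% of all tested genes and above them in 18.8%. In experiment 3 these shares were 12.9% and 11.5%. Separations within 1 experiment given below are to be read beside these shares.

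The remaining 3 members, Eif3j1, Eif3j2 and Eif4e1b, had no count in any library, so at most 0.31 CPM is allowed in each. Eif3j1 and Eif3j2 are near-identical copies that share 36.9% and 91.8% of their 50-base stretches with other genes, so their 0 is uncertain. Per kilobase of exon, the most abundant members over the 12 libraries were Eef1a1 at 1053 CPM, Eef2 at 585 and Eef1b2 at 163.5. The scarcest of those tested was the eIF2B subunit Eif2b3 at 0.607 CPM per kilobase.

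**Figure D1:**
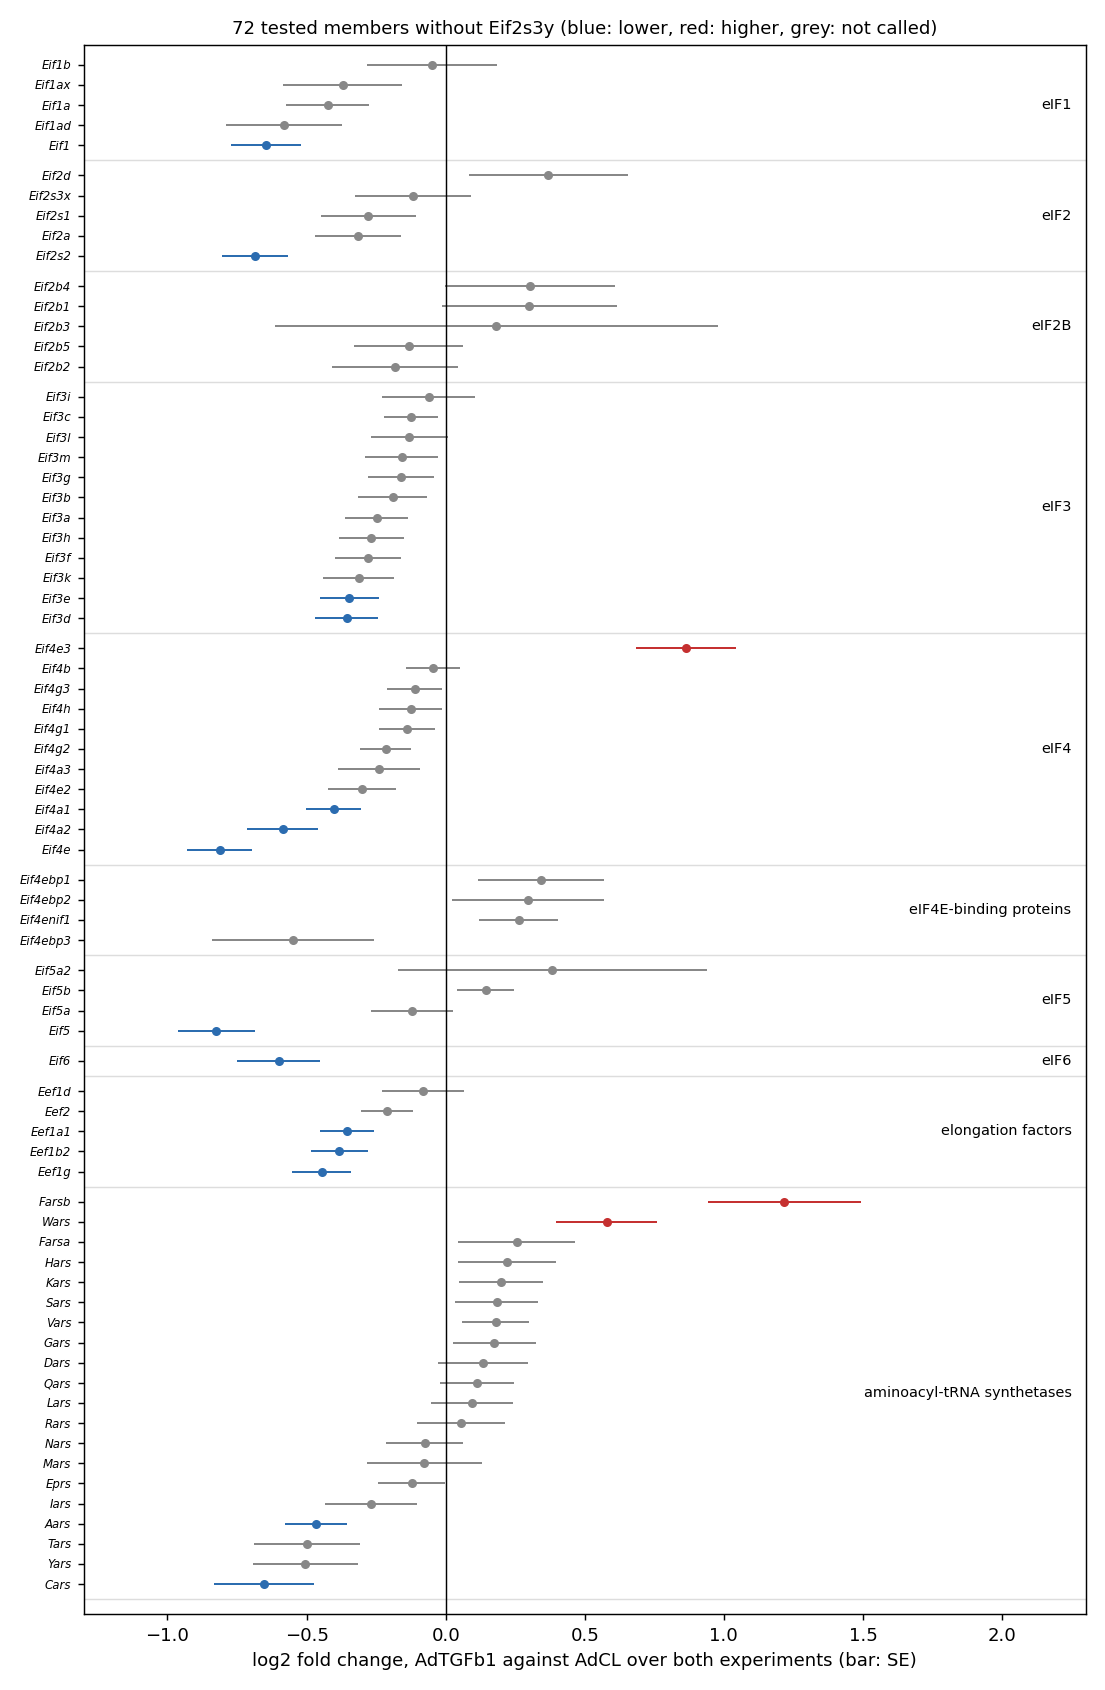
Log2 fold change of AdTGFb1 against AdCL over both experiments for the 72 tested members other than the Y-linked Eif2s3y, grouped by role, with bars of 1 SE. All 12 eIF3 subunits tested lie left of 0 and 2 of them were called, while the synthetases spread to both sides.

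The cap-binding and helicase group held members that moved in opposite directions. Of its 12 genes 11 were tested, and 3 fell (27.3%, against 10.4% of all genes) and 1 rose (9.09%, against 6.78%). Its median log2 fold change was -0.21, and -0.05 under total-count scaling, where all genes stood at 0.17. Eif4e, the cap-binding subunit, had 141, 110.1 and 124 CPM in AdCL DC 7, 8 and 9 and 65.1, 74.3 and 65.3 CPM in AdTGFb1 DC 14, 52 and 54. In experiment 3 it had 112, 126 and 124 CPM in AdCL DC 943, 944 and 949 and 80.2, 68.1 and 66.6 CPM in AdTGFb1 DC 954, 955 and 956. Every AdTGFb1 library lay below every AdCL library. Its mean was 123 ± 11.3 CPM (SD, n = 6) under AdCL and 69.9 ± 6.07 under AdTGFb1, a log2 fold change of -0.81 ± 0.12 (SE) with an adjusted p of 8.46e-05. The fall was called within experiment 1 (-0.87, adjusted p = 0.000351) and within experiment 3 (-0.75, adjusted p = 0.0051), and the difference between the experiments was not called (adjusted p = 0.824).

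Eif4e3, a cap-binding paralogue of eIF4E, moved the other way. It had 21.6, 19.4 and 22.7 CPM under AdCL and 39.2, 28.7 and 45.6 under AdTGFb1 in experiment 1, and 28.7, 17.1 and 25.2 against 49.4, 39.6 and 42.9 in experiment 3, with libraries in the order of their numbers. All 6 AdTGFb1 libraries lay above all 6 AdCL libraries, the lowest of the former and the highest of the latter being nearly equal. The log2 fold change was 0.86 ± 0.18 over both experiments (adjusted p = 0.00249), 0.83 in experiment 1 (adjusted p = 0.0201) and 0.90 in experiment 3 (adjusted p = 0.0351). The call in experiment 1 was lost without AdCL DC 8, AdTGFb1 DC 14 or AdTGFb1 DC 54 (adjusted p up to 0.112), and that in experiment 3 without AdCL DC 944 or 949 or AdTGFb1 DC 954 or 956 (up to 0.195). The call over both experiments was kept without any of the 12 libraries, with adjusted p of 0.00183 to 0.0101. Of its 50-base stretches, 12.3% also occur in other transcripts.

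The balance of Eif4e and Eif4e3 within a library does not depend on scaling between libraries. Per kilobase of exon, Eif4e was 1.63 to 3.09 times Eif4e3 in the 6 AdCL libraries and 0.599 to 1.08 times in the 6 AdTGFb1 libraries. Without division by exon length, Eif4e was 3.89 to 7.39 times Eif4e3 under AdCL and 1.43 to 2.59 times under AdTGFb1, so above it in every library. By either measure the ranges of the vectors did not overlap. This ratio was chosen after the values had been seen and carries no test. Eif4e2, the third family member with counts, lay between 12.7 and 18.7 CPM per kilobase under AdTGFb1 and between 15 and 23.7 under AdCL and was not called (log2 fold change -0.30 ± 0.12, adjusted p = 0.0969).

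Both cytoplasmic eIF4A helicases fell. Eif4a1 had 592, 543 and 486 CPM under AdCL and 433, 401 and 429 under AdTGFb1 in experiment 1, and 486, 555 and 474 against 414, 335 and 366 in experiment 3. Its log2 fold change was -0.40 ± 0.10 (adjusted p = 0.00835), and it was -0.36 and -0.44 within experiments 1 and 3 (adjusted p = 0.0491 and 0.0441). Eif4a2 had 291, 296 and 229.6 CPM under AdCL and 150.3, 152 and 135 under AdTGFb1 in experiment 1, and 215, 194 and 198 against 157, 172 and 174.5 in experiment 3. The fold change of Eif4a2 was -0.59 ± 0.13 (adjusted p = 0.00343), called in experiment 1 (-0.90, adjusted p = 5.82e-05) and not in experiment 3 (-0.27, adjusted p = 0.324), with an adjusted p of 0.0581 for the difference between the experiments. For both helicases all 6 AdTGFb1 libraries were below all 6 AdCL libraries in CPM, while as shares of total counts the groups overlapped. Of the Eif4a1 sequence 28.4% is shared with copies, and Eif4a2 overlaps the small RNAs Snora81 and Snord2 and, on the opposite strand, Rfc4. Both within-experiment calls of Eif4a1 were marginal: in experiment 1 omitting any of its 6 libraries ended the call (adjusted p 0.0736 to 0.287), and in experiment 3 omitting any but AdTGFb1 DC 954 did (up to 0.225). Over both experiments the Eif4a1 call was lost under total-count scaling (-0.23, adjusted p = 0.121).

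The scaffold and the inhibitors of the cap-binding complex were not called. Eif4g1, the main eIF4G scaffold, ranged from 434 through a median of 481 to 551 CPM under AdCL and from 397 through 438.5 to 493 under AdTGFb1, with a log2 fold change of -0.14 ± 0.10 (adjusted p = 0.388). That sign turned under total-count scaling (0.03). Of the 4 eIF4E-binding genes none was called by edgeR's quasi-likelihood test or by DESeq2, and none had an unadjusted p under 0.05, while under total-count scaling edgeR called 1 of the 4 higher. Eif4ebp1, the binding protein best known as an mTORC1 substrate, ranged from 11.3 through 27.9 to 38.2 CPM under AdCL and from 30.5 through 32.8 to 39.6 under AdTGFb1 (0.34 ± 0.23, adjusted p = 0.339).

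Among the genes of start-codon selection, Eif1, Eif2s2 and Eif5 fell. Eif1, which guards the accuracy of start-codon choice, had 329.5, 298.6 and 332 CPM under AdCL and 193, 157 and 150.0 under AdTGFb1 in experiment 1, and 229, 199 and 210.1 against 165, 185 and 149.5 in experiment 3. The log2 fold change was -0.65 ± 0.13 (adjusted p = 0.00145), and it was -0.94 in experiment 1 (adjusted p = 4.35e-05) and -0.35 in experiment 3 (adjusted p = 0.169). No AdTGFb1 library reached the lowest AdCL library in CPM, while as shares of total counts the groups overlapped. Of the Eif1 sequence 19.2% is shared with copies. All 5 eIF1-type genes had negative fold changes with a median of -0.42. Of the 5, edgeR called 1 lower (20%, against 10.4% of all genes) and DESeq2 called 3 lower. Under total-count scaling 4 of the 5 stayed negative with a median of -0.25.

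Eif2s2, the β subunit of eIF2, had 118, 106 and 132 CPM under AdCL and 69.6, 73.1 and 72.4 under AdTGFb1 in experiment 1, and 103, 102.5 and 103 against 79.1, 59.6 and 57.9 in experiment 3. Its groups did not overlap. The log2 fold change was -0.69 ± 0.12 (adjusted p = 0.000513), with -0.72 in experiment 1 (adjusted p = 0.00254) and -0.65 in experiment 3 (adjusted p = 0.0182). In experiment 3 the call was lost without AdCL DC 944 or 949 or AdTGFb1 DC 955 or 956 (adjusted p up to 0.113). Eif2s1, the α subunit whose phosphorylation slows initiation, was not called: it ranged from 43.9 through 58.1 to 88.7 CPM under AdCL and from 41.5 through 44.6 to 65.9 under AdTGFb1 (-0.28 ± 0.17, adjusted p = 0.308). The eIF2 class was set by symbol and holds Eif2a, Eif2d, Eif2s1, Eif2s2, Eif2s3x and Eif2s3y. Of these 6 genes 1, Eif2s2, was called lower (16.7%, against 10.4% of all genes called lower and 17.2% called in either direction). The 5 subunits of eIF2B had no call by edgeR's quasi-likelihood test or DESeq2 over both experiments and no unadjusted p under 0.05, with a median of 0.18. Their median was 0.50 in experiment 1 (2 unadjusted p under 0.05) and -0.32 in experiment 3, and for all 5 the effect was lower in experiment 3; edgeR called 0 of these differences (1 unadjusted p under 0.05) and DESeq2 1.

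The γ subunit of eIF2 is encoded on the X chromosome (Eif2s3x) and, in mice, also on the Y chromosome (Eif2s3y). Eif2s3y had 44.6, 39.4 and 31.5 CPM in the 3 AdCL libraries of experiment 1 and 31.4 in AdTGFb1 DC 14, and 0 in the other 8 libraries. These are the 4 male libraries, so its levels follow sex and no fold change is given. Eif2s3x ranged from 13.8 through 26.4 to 37.0 CPM under AdCL and from 16.5 through 22.8 to 31.6 under AdTGFb1 and was not called (-0.12 ± 0.21, adjusted p = 0.757).

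Eif5, the GTPase activator of eIF2, fell, and the size of the fall differed between the experiments. It had 827, 775 and 727.5 CPM in AdCL DC 7, 8 and 9 and 322, 330.5 and 319 CPM in AdTGFb1 DC 14, 52 and 54. In experiment 3 it had 403, 456.5 and 448.5 CPM in AdCL DC 943, 944 and 949 and 330.4, 317 and 354 CPM in AdTGFb1 DC 954, 955 and 956. The 6 AdTGFb1 libraries lay together at 317 to 354 CPM, below every AdCL library, and the AdCL libraries of the 2 experiments stood apart. The log2 fold change was -0.82 ± 0.14 over both experiments (adjusted p = 0.000413), -1.26 ± 0.12 in experiment 1 (adjusted p = 2.05e-07) and -0.38 ± 0.12 in experiment 3 (adjusted p = 0.0639). The difference of 0.88 ± 0.17 between these effects was called (adjusted p = 0.0034). AdCL libraries of experiment 1 were all male and those of experiment 3 all female; adding sex to the model gave a difference of 0.89 (adjusted p = 0.052), and adding a score of other cells' markers, described at the end, gave 0.88 (adjusted p = 0.149). Eif5 overlaps the small RNA Snora28.

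**Figure D2:**
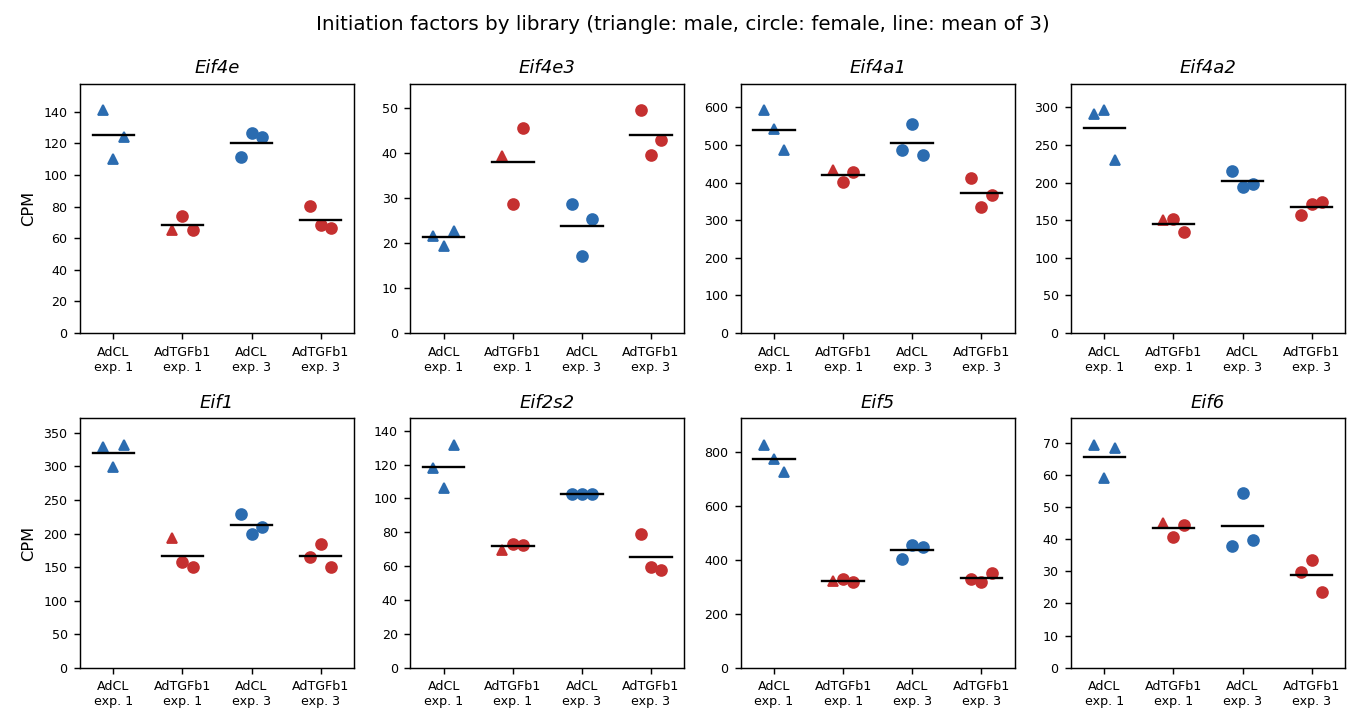
CPM of 8 initiation factors in each of the 12 libraries, by vector and experiment, with the mean of 3 libraries as a line, triangles for male and circles for female libraries. Of these 8 only Eif4e3 is higher under AdTGFb1, and Eif5 under AdCL is higher in experiment 1 than in experiment 3.

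Of the other eIF5-type genes, Eif5a, which carries hypusine and relieves stalled ribosomes, ranged from 204 through 248 to 296.5 CPM under AdCL and from 167 through 223 to 340.2 under AdTGFb1. It was not called (-0.12 ± 0.15, adjusted p = 0.638), its sign turned under total-count scaling (0.05), and its fold change was 0.23 in experiment 1 and -0.47 in experiment 3 (adjusted p = 0.0763 for the difference). Eif5b, the GTPase of subunit joining, was not called (0.14 ± 0.10, adjusted p = 0.385). Eif6, which keeps the large ribosomal subunit from joining too early, fell: it had 69.3, 59.1 and 68.3 CPM under AdCL and 45.0, 40.8 and 44.6 under AdTGFb1 in experiment 1, and 37.8, 54.4 and 39.9 against 29.7, 33.5 and 23.5 in experiment 3. Within each experiment the Eif6 groups were separate, while across experiments 3 of the 6 AdTGFb1 libraries were within the AdCL range. The log2 fold change was -0.60 ± 0.15 (adjusted p = 0.00849), called in experiment 1 (adjusted p = 0.0429) and not in experiment 3 (adjusted p = 0.097). The experiment 1 call was lost on omitting any 1 of its 6 libraries (adjusted p up to 0.146). The call over both experiments was lost under total-count scaling (-0.43, adjusted p = 0.0506) and without the term for experiment (adjusted p = 0.0606).

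The eIF3 complex bridges the small ribosomal subunit and eIF4G. Its 12 tested subunits had fold changes below 0 with a median of -0.22. Of the 12, 2 (Eif3d and Eif3e) were called lower (16.7%, against 10.4% of all genes called lower and 17.2% called in either direction). Under total-count scaling 7 of the 12 were below 0 and both calls were lost. All 12 were below the median of all genes under either scaling, which moves all genes nearly alike. Eif3d, the subunit that can itself bind caps, ranged from 125 through 136 to 159.7 CPM under AdCL and from 83.8 through 112 to 141 under AdTGFb1 (-0.36 ± 0.11, adjusted p = 0.0377). Eif3e ranged from 137 through 160.1 to 188 CPM and from 108 through 125 to 139 (-0.35 ± 0.11, adjusted p = 0.0309). For both genes the groups overlapped. Both calls were weak: without AdCL DC 7 or 9, AdTGFb1 DC 14 or 52 or AdCL DC 944, each was lost. Eif3d was also lost without AdCL DC 943 or 949 or AdTGFb1 DC 954 or 955 (adjusted p up to 0.12), and Eif3e without AdCL DC 8 or AdTGFb1 DC 54 or 956 (up to 0.0937).

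All 5 elongation factors had negative fold changes over both experiments, and 3 of them fell (60%, against 10.4% of all genes). Their median was -0.36, and -0.19 under total-count scaling, where Eef1d was positive and the 3 calls were lost. Eef1a1, which delivers aminoacyl-tRNA, had 3603, 3222 and 3244 CPM under AdCL and 2474, 2530.0 and 2445 under AdTGFb1 in experiment 1, and 2487, 2667 and 2503 against 2241, 2355 and 1728 in experiment 3. The groups were separate within each experiment. Libraries were separate in this direction for 21.6% of all tested genes in experiment 1 and 12.9% in experiment 3. The fold change of Eef1a1 was -0.36 ± 0.10 (adjusted p = 0.0157), called in experiment 1 (-0.43, adjusted p = 0.0125) and not in experiment 3 (-0.28, adjusted p = 0.227). Without AdCL DC 7 the call over both experiments was lost (adjusted p = 0.0678), and that in experiment 1 was lost without AdCL DC 7 or AdTGFb1 DC 54 (up to 0.112).

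Eef1b2 and Eef1g are subunits of the exchange factor that recharges eEF1A. Eef1b2 had 520.0, 507 and 440.4 CPM under AdCL and 388, 414.5 and 365 under AdTGFb1 in experiment 1, and 415, 474 and 452 against 336, 378 and 278 in experiment 3. The 2 groups of 6 did not overlap (-0.38 ± 0.10, adjusted p = 0.0146), although without AdCL DC 7 or AdCL DC 944 the call was lost (adjusted p up to 0.0558). Eef1g ranged from 116.6 through 144 to 161 CPM under AdCL and from 90.5 through 102.5 to 117 under AdTGFb1, with 5 of 6 AdTGFb1 libraries below all AdCL libraries (-0.45 ± 0.11, adjusted p = 0.00718). Eef2, the translocase, was not called: 1738 through 2125 to 2419 CPM against 1473 through 1812 to 2035 (-0.21 ± 0.09, adjusted p = 0.131). Copies share 39.4% of the Eef1a1 and 44.2% of the Eef1g sequence, and Eef1b2 overlaps Ndufs1 on the opposite strand.

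**Figure D3:**
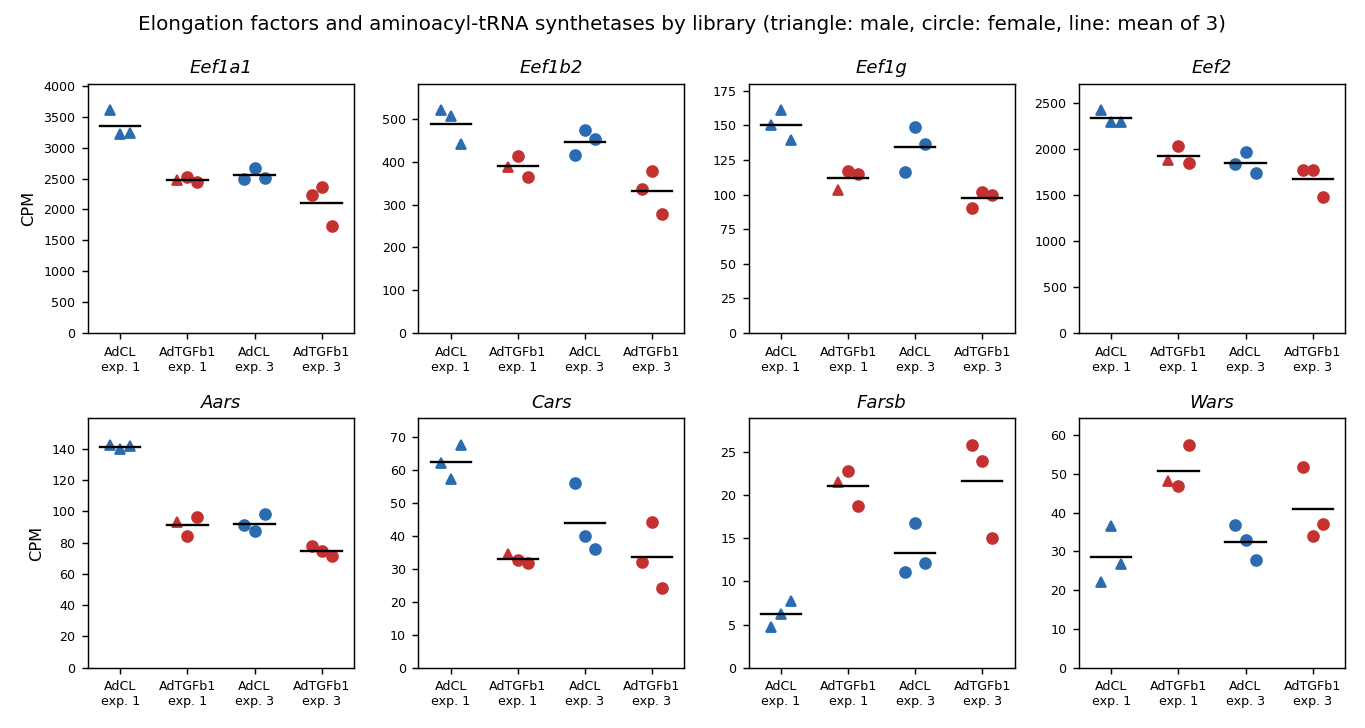
CPM of 4 elongation factors and 4 synthetases in each library, drawn as in the plot of initiation factors by library. The 3 elongation factors Eef1a1, Eef1b2 and Eef1g are separate within each experiment, and Farsb rises from 4.76 to 7.72 CPM under AdCL to 18.7 to 22.8 under AdTGFb1 in experiment 1.

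The 20 cytosolic synthetases did not move as a block. Farsb and Wars rose, Aars and Cars fell, and 16 were not called, so 20% were called, near the 17.2% of all genes. The median was 0.10 (0.27 under total-count scaling). Farsb, the β subunit of phenylalanyl-tRNA synthetase, had 4.76, 6.17 and 7.72 CPM under AdCL and 21.4, 22.8 and 18.7 under AdTGFb1 in experiment 1, and 11.1, 16.7 and 12.1 against 25.8, 23.9 and 15.04 in experiment 3. The groups were far apart in experiment 1 and overlapped in experiment 3, where AdTGFb1 DC 956 lay below AdCL DC 944. The log2 fold change was 1.22 ± 0.28 over both experiments (adjusted p = 0.0046), 1.75 ± 0.36 in experiment 1 (adjusted p = 0.000938) and 0.70 ± 0.35 in experiment 3 (adjusted p = 0.288). The difference between the experiments was not called (adjusted p = 0.227). Farsa, which encodes the α subunit of the same enzyme, was not called (0.25 ± 0.21, adjusted p = 0.459). Farsb overlaps Sgpp2 on the opposite strand.

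Wars, the tryptophanyl enzyme, is known as a gene induced by interferon-γ. It had 22.1, 36.6 and 26.9 CPM under AdCL and 48.0, 47.0 and 57.4 under AdTGFb1 in experiment 1, and 36.7, 33.1 and 27.8 against 51.6, 33.9 and 37.0 in experiment 3. Only AdTGFb1 DC 955 lay within the AdCL range. Wars rose by 0.58 ± 0.18 on the log2 scale (adjusted p = 0.0334), called in experiment 1 (0.83, adjusted p = 0.0146) and not in experiment 3 (0.33, adjusted p = 0.527). The call over both experiments was lost without any 1 of AdCL DC 7, 9 or 949 or AdTGFb1 DC 14, 52, 54 or 954 (adjusted p up to 0.0931), and the experiment 1 call without AdCL DC 7 or AdTGFb1 DC 54 (up to 0.0712). Of 11 other interferon-γ response genes tested, 7 rose (63.6%, against 6.78% of all genes) and 4 were not called, and the median was 0.68. Of these 11, Cxcl9, a T-cell chemokine, went from 58.2 ± 36.7 to 258 ± 114 CPM (2.18 ± 0.34, adjusted p = 0.000194). The guanylate-binding proteins Gbp3 and Gbp7 rose by 1.07 ± 0.15 and 1.56 ± 0.23. Within experiment 3, where Wars was not called, 7 of the 11 rose, with a median of 0.89 (1.97% of all genes rose). The relation of Wars to these genes was not tested.

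Aars, the alanyl enzyme, had 142, 139.5 and 142 CPM under AdCL and 93.4, 83.9 and 96.3 under AdTGFb1 in experiment 1, and 91.1, 87.0 and 97.9 against 77.6, 74.8 and 71.6 in experiment 3. The groups were separate within each experiment, and the AdTGFb1 libraries of experiment 1 lay at the level of the AdCL libraries of experiment 3. Its log2 fold change was -0.47 ± 0.11 (adjusted p = 0.00687), with -0.63 in experiment 1 (adjusted p = 0.00333) and -0.30 in experiment 3 (adjusted p = 0.287). Cars, the cysteinyl enzyme, had 61.9, 57.1 and 67.4 CPM against 34.5, 32.7 and 31.8 in experiment 1 and 56.0, 39.8 and 35.9 against 32.0, 44.2 and 24.2 in experiment 3 (-0.65 ± 0.18, adjusted p = 0.0162). The Cars groups were separate in experiment 1 alone. Exons of Aars overlap Exosc6 on the same strand over 13.5% of the sequence, and both genes lost their calls under total-count scaling.

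The 8 synthetases of the multisynthetase complex, a particle of synthetases held by scaffold proteins, were not called, by edgeR or by DESeq2, and none had an unadjusted p under 0.05. Their fold changes had a median of 0.08. Eprs, which joins the glutamyl and prolyl activities in 1 protein, ranged from 316 through 375 to 481 CPM under AdCL and from 258 through 384 to 426 under AdTGFb1 (-0.12 ± 0.12, adjusted p = 0.548, and 0.05 under total-count scaling). The 3 scaffolds of the complex were not called either (1 unadjusted p under 0.05, none by DESeq2). Of 17 mitochondrial synthetases 1 rose (5.88%, against 6.78% of all genes). This was Tars2, which went from 15.1 ± 6.87 to 25.2 ± 4.48 CPM (0.80 ± 0.24, adjusted p = 0.0303).

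Within experiment 1 alone 12 members fell (16.4%) and 3 rose (4.11%), where 24.7% of all tested genes were called, 14.1% lower and 10.6% higher. The members' share of falls was thus near the background there, and their share of rises below it. Within experiment 3 alone 3 fell (Eif2s2, Eif4a1 and Eif4e) and 1 rose (Eif4e3), where 6.43% of all genes were called, 4.46% lower and 1.97% higher, so the members' 4 of 73 was near the background. None of the 20 synthetases was called in experiment 3 by edgeR or by DESeq2, and none had an unadjusted p under 0.05. The difference between the experiments was called for Eif5 and no other member, while 6.02% of all genes had one, 3.43% higher and 2.59% lower, and 10 members had an unadjusted p under 0.05. By DESeq2 4 members had a higher and 1 a lower effect in experiment 3. Over 72 members the fold changes of the experiments, which have separate controls, were both negative for 42, both positive for 15 and of opposite sign for 15. Pearson's r across these members was 0.18, and 0.14 across 13148 other genes. With a minimum mean of 10 CPM, chosen after the values had been seen, it was 0.67 over 69 members and 0.37 over 7770 other genes. Genes are not independent replicates, and that minimum leaves out Eif2b3 and Eif5a2. The scarce Eif2b3 (1.93 in experiment 1, -1.52 in experiment 3) and Eif5a2 (-0.85 and 1.63) lay farthest from the rest, and neither was called.

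**Figure D4:**
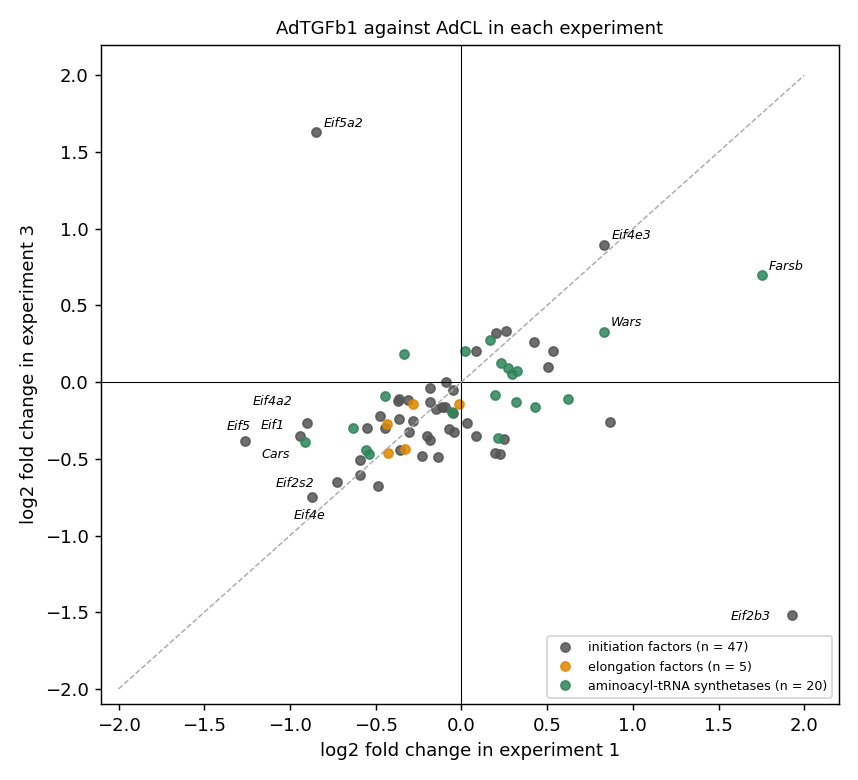
Log2 fold change of AdTGFb1 against AdCL in experiment 1 (x) and in experiment 3 (y) for 72 members, with a dashed line of equal change. Eif4e, Eif2s2 and Eif4e3 lie near the line, Eif5 and Farsb changed more in experiment 1, and the scarce Eif2b3 and Eif5a2 lie off on opposite sides.

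Levels also differed between the experiments themselves. With the vector held in the model, 7 members were lower in experiment 3 than in experiment 1 and 1, Eif4g3, was higher, where 6.43% of all genes were called, 2.86% lower and 3.57% higher. After the Y-linked Eif2s3y the smallest adjusted p values were those of Eif3f (-0.48 ± 0.12, adjusted p = 0.0182) and Aars (-0.45 ± 0.11, adjusted p = 0.0193). The Eif3f call was lost without AdTGFb1 DC 52, AdCL DC 949 or AdTGFb1 DC 956 (up to 0.0587), and the Aars call without AdCL DC 944 (0.0566). Eif3f, an eIF3 subunit, had 199.8, 198 and 195 CPM under AdCL and 181, 202 and 140.5 under AdTGFb1 in experiment 1, and 156.5, 168.5 and 130 against 119, 127.5 and 103 in experiment 3. Each Eif3f group of experiment 3 lay below the same vector's group in experiment 1. With sex in the model 2 members were called lower and 0 higher, and all 6 libraries of experiment 3 but 2 of 6 of experiment 1 were female.

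Other genes of the translation pathway were read from lists. As shares to set beside each list here and below, 10.4% of all tested genes were called lower and 6.78% higher over both experiments. Of 7 tested termination and recycling factors 2 fell: Denr, which with MCTS1 releases tRNA from post-termination ribosomes, went from 114 ± 38.3 to 51.2 ± 3.98 CPM (-1.12 ± 0.17, adjusted p = 0.000164), and Etf1, which reads stop codons, from 344 ± 54.5 to 252 ± 16.3 (-0.44 ± 0.10, adjusted p = 0.00563). Among 8 other elongation genes Dph5, an enzyme of the diphthamide that eEF2 carries, fell (-1.34 ± 0.27, adjusted p = 0.00208), and Eef2k, the kinase that inhibits eEF2, rose from 7.67 ± 3.24 to 18.9 ± 8.71 CPM (1.24 ± 0.30, adjusted p = 0.00806). Of 15 poly(A)-binding and cap-associated partners 2 fell and 2 rose, with Pabpc4 at -0.94 ± 0.19 (adjusted p = 0.00234), Pabpc1 at -0.35 ± 0.10 (adjusted p = 0.0253) and Mknk1, a kinase of eIF4E, at 0.77 ± 0.16 (adjusted p = 0.00251).

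RNA was read for 10 genes of eIF2 kinases, phosphatase subunits and their partners, of which 2 rose and 1 fell (30% called, against 17.2% of all genes). Kinase activity and phosphorylation of eIF2 were not measured. The heme-regulated kinase Eif2ak1 went from 44.1 ± 9.34 to 71.3 ± 7.95 CPM (0.69 ± 0.16, adjusted p = 0.00471) and the kinase of double-stranded RNA, Eif2ak2, from 37.4 ± 7.73 to 56.3 ± 18.0 (0.55 ± 0.19, adjusted p = 0.0467). Ppp1r15a, which directs a phosphatase to eIF2, went from 1270.0 ± 484 to 668 ± 54.3 CPM (-0.84 ± 0.18, adjusted p = 0.00255), and this fall differed between the experiments (-1.41 in experiment 1, -0.28 in experiment 3, adjusted p = 0.00184 for the difference). Of 25 tested genes of amino acid supply and the integrated stress response that ATF4 targets, 7 fell and 1 rose, with a median of -0.25. These were 28% lower and 4% higher, against 10.4% and 6.78% of all genes. Under total-count scaling 5 fell and 2 rose, with a median of -0.09. Within experiment 1, 8 fell and 2 rose (14.1% and 10.6% of all genes). Within experiment 3, 3 fell and 0 rose (4.46% and 1.97%). The difference between the experiments was called for 4 of the 25 (16%, against 6.02% of all genes). Atf4 itself went from 735 ± 216 to 468 ± 42.0 CPM (-0.61 ± 0.12, adjusted p = 0.00182), the cationic amino acid transporter Slc7a1 from 224 ± 68.2 to 93.8 ± 9.92 (-1.21 ± 0.15, adjusted p = 2.59e-05), and the transcription factor Cebpb rose by 0.90 ± 0.18 (adjusted p = 0.00146).

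Of 25 tested mTORC1 pathway genes 1 was called, Pdcd4, an inhibitor of eIF4A, which went from 44.9 ± 15.6 to 28.4 ± 5.92 CPM (-0.60 ± 0.20, adjusted p = 0.0403). Under total-count scaling that call was lost and 3 of the 25 were called higher. Of 8 genes of the MYC family and partners, the MYC antagonists Mxd1 (-0.38 ± 0.11, adjusted p = 0.0269) and Mxd4 (0.76 ± 0.24, adjusted p = 0.0321) moved in opposite directions, and Myc, at 63.3 ± 9.16 CPM under AdCL and 49.6 ± 11.6 under AdTGFb1, was not called (-0.38 ± 0.15, adjusted p = 0.0994). Transcripts with a terminal oligopyrimidine start, which mTORC1 regulates at translation, were counted without ribosomal proteins and the members: of 11 tested 6 fell and 5 were not called, and their median was -0.39 (-0.23 under total-count scaling, where 3 of the 11 were called lower). These included the non-coding snoRNA hosts Snhg1 (-0.98 ± 0.18, adjusted p = 0.000703) and Gas5 (-0.77 ± 0.17, adjusted p = 0.00458) and Tpt1 (-0.52 ± 0.10, adjusted p = 0.00124).

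The calls were set against sex and cell markers. A term for sex kept 12 of the 17 calls over both experiments and lost Eif3e, Eef1a1, Aars, Cars and Wars. The mean log2 CPM of endothelial, epithelial, fibroblast, lymphoid, neutrophil and platelet markers was 1.01 to 2.29 under AdCL and -0.08 to 1.21 under AdTGFb1, and so moved with the vector. With it as a term 2 of the 17 calls were kept, Eif4e (-0.78, adjusted p = 0.022) and Eif2s2 (-0.70, adjusted p = 0.0451). The other 15 kept their sign: Farsb was 0.96, Eif4e3 0.66, Eif3d -0.56, Eif6 -0.53 and Eif4a1 -0.45, while Eif5 was -0.43, Eif4a2 -0.28 and Eif3e -0.16. Eif4e and Eif2s2 were also the members whose call over both experiments held under all 19 alternatives run. Macrophage markers, which were not in this term, moved with the vector as given above, and their part in these results was not tested.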

How the data were processed

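Per the submitters' processing notes, Trim Galore 0.4.1, cutadapt 1.9.1, STAR 2.5.0c, HTSeq and DESeq2 were used with build mm9. The deposited table holds raw read counts per gene symbol for 12 libraries, made by the authors with a directional kit per the labels' protocols. For strand setting and annotation of the counting, the sources used here give no statement. Members and lists were chosen with earlier results of these data known. Tests used edgeR 4.0.16 in R 4.3.3 (TMM, filterByExpr on the 4 groups, quasi-likelihood F test, two-sided, Benjamini-Hochberg over 13221 genes, called at adjusted p under 0.05), with experiment as an additive term over both experiments and a 4-group model within them; 7100 genes had no count. Levels are CPM on TMM-scaled library sizes. SE is the absolute log2 fold change divided by the square root of F. Named members were, per role, up to 4 called ones of smallest adjusted p, those whose effects differed between experiments, the 3 that differed most between experiments, and 10 chosen by name; lists gave up to 3 called genes each. Exon length, overlap and shared sequence came from GENCODE annotation of another build, without coordinates. The tests were checked on simulated data. Alternatives were other scalings, DESeq2 1.42.0, no filter, terms for sex and markers, and each library left out. Per library, 10099912 to 15594546 counts set the precision.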

Additional observations from a re-analysis of the deposited data

Results flagged for a closer look

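The vector's effect on Eif5 differed between the experiments by 0.88 ± 0.17 on the log2 scale (experiment 3 minus experiment 1, edgeR's interaction test, adjusted p = 0.0034), and this test of the difference marked it for a closer look. AdCL libraries had 727.5 to 827 CPM in experiment 1 and 403 to 456.5 in experiment 3, while all 6 AdTGFb1 libraries had 317 to 354. The call was kept without any 1 of the 12 libraries (adjusted p 0.00376 to 0.0194). It was lost with sex in the model (0.89, adjusted p = 0.052) and with the marker score in the model (0.88, adjusted p = 0.149). The 3 AdCL libraries of experiment 1 are male and those of experiment 3 female, and the part of sex was not separated from that of the experiment.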

How the results depend on the processing

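Of 865 alternatives for 53 gene results, 668 kept direction and side of the threshold, 192 lost the call, 1 gained one and 4 reversed. Under total-count scaling Eif4g1, Eif5a and Eprs turned to 0.03, 0.049 and 0.049 (log2, both experiments), and with the marker term Eif4e3 in experiment 1 turned to -0.19; the cause was not tested. Counts of called members moved by over 1.5 times as follows. Over both experiments, total-count scaling gave 5 higher and 5 lower, and the marker term 0 and 2. In experiment 1, total-count scaling gave 10 higher and 6 lower, the sex term 1 and 5, and the marker term 0 and 1. In experiment 3, total-count scaling gave 1 lower, DESeq2 7 lower, and the marker term 0 higher. For the difference between experiments, DESeq2 size factors gave 2 higher, total-count scaling 2 lower, DESeq2 4 higher and 1 lower, no filter 1 lower, and the sex and marker terms 0 higher each. For experiment 3 against 1, DESeq2 size factors gave 0 higher, DESeq2 11 lower, no filter 0 higher, and the sex term 0 higher and 2 lower. Leaving out 1 library gave 2 to 3 higher and 10 to 16 lower over both experiments, 1 to 3 and 7 to 11 in experiment 1 (7 without AdCL DC 7 or AdTGFb1 DC 54), 0 to 1 and 1 to 4 in experiment 3 (1 without AdCL DC 944 or 949 or AdTGFb1 DC 956), 1 to 2 and 0 to 1 for the difference, and 0 to 1 and 2 to 8 between experiments. No paired analysis was possible because the groups share no replicate numbers. The scarce Eif2b3 and Eif5a2 spread widely within groups (5, 47 and 46 counts of Eif2b3 under AdTGFb1 in experiment 3, 8, 57 and 61 of Eif5a2 under AdCL); the cause was not tested.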
